A study of Mus musculus with 23 samples.

Results

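The expression of 10 genes of adenosine signalling and cAMP control was examined in bone marrow-derived macrophages (BMDM) of the mouse. The genes were Adora1, Adora2a, Adora2b and Adora3 (the 4 adenosine receptors), Entpd1, Nt5e and Ada (enzymes that make or remove adenosine), Crem (a cAMP-responsive transcription factor) and Pde4b and Pde4d (cAMP phosphodiesterases). They were chosen by name, through the RefSeq accession of each array probe, and made up 10 of the 26014 genes that carried an accession and entered the fit. Together they were measured by 16 probes. The members were proposed with earlier results of these data known.

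The 6 groups were BMDM of 3 genotypes, namely wild type (wt), a deletion of MK2 (MK2-/-) and a deletion of MK2 together with MK3 (MK2/3-/-), each without stimulus in medium or stimulated for 120 min with LPS at 100 ng/ml. MK2 and MK3 (genes Mapkapk2 and Mapkapk3) are related protein kinases activated by p38 MAPK, and LPS is a bacterial cell wall product sensed by Toll-like receptor 4. All cells came from femoral bone marrow of male mice aged 10 to 14 weeks, labelled C57BL/6 (C57BL/6J for the deletion lines in the methods of the study), and were differentiated for 9 days with M-CSF, the macrophage growth factor, which was withdrawn 1 h before treatment. Each group had 4 arrays, except MK2-/- in medium with 3. Each of 11 cultures gave a medium and an LPS sample, and 1 further MK2-/- culture gave an LPS sample only. Whether a culture came from 1 mouse or from several was not stated in the sources used here.

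Macrophages release ATP when activated or damaged. At the cell surface Entpd1 (CD39) degrades ATP and ADP to AMP, Nt5e (CD73) turns AMP into adenosine, and Ada removes adenosine by turning it into inosine. Adora2a and Adora2b couple to the stimulatory G protein Gs and raise cAMP, whereas Adora1 and Adora3 couple to the inhibitory Gi. In macrophages a rise in cAMP is known to dampen the output of TNF and other inflammatory mediators. Phosphodiesterases of the Pde4 family end the signal by hydrolysing cAMP, and Crem encodes both activators and an inducible repressor of cAMP-driven transcription.

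Promoter sequences are shown for the annotated start of Adora2b and all 4 annotated starts of Pde4b, the members with the highest signal after LPS in relation to medium for which a sequence was at hand, so that the letters in front of their start sites can be read beside the expression values. They were taken from RefSeq on the GRCm38.p6 build, each as the 250 bases before an annotated transcription start on the strand of the gene. Capitals mark matches to the NF-kB consensus, a binding motif of a transcription factor family activated by LPS.
Adora2b, chr11:62248734-62248983, plus strand: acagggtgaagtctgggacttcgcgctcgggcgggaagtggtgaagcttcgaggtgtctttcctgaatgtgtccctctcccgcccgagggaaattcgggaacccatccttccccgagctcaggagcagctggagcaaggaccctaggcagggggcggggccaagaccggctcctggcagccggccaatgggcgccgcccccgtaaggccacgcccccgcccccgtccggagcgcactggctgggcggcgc
Pde4b, chr4:102421305-102421554, plus strand: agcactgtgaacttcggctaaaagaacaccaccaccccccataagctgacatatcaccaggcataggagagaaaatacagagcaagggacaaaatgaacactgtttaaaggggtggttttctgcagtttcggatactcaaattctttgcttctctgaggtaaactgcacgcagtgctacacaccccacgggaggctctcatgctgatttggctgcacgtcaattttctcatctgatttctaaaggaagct
Pde4b, chr4:102569810-102570059, plus strand: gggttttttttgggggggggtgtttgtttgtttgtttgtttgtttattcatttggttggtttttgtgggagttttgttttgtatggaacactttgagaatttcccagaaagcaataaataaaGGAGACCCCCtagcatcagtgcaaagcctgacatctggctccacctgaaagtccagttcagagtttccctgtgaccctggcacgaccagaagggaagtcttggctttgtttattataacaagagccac
Pde4b, chr4:102587308-102587557, plus strand: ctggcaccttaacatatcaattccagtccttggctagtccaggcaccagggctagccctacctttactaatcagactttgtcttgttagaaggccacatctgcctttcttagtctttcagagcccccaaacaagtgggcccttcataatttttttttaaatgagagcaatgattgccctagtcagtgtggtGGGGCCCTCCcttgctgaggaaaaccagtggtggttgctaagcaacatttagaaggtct
Pde4b, chr4:102589593-102589842, plus strand: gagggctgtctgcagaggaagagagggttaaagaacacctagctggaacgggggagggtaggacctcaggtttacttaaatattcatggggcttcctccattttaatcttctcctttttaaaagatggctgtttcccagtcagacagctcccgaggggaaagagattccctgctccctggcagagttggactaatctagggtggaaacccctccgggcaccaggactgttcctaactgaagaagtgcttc

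Sequences were found for 8 of the 10 genes, over 13 starts, and none was at hand for Adora2a and Crem. The full cAMP response element TGACGTCA, searched on both strands, was in none of the 13 windows and in 1.55% of all 32851 windows of the same length. Its core TGACG, which is contained in the full element, was in both windows of Entpd1 and in the first window of Pde4b, against 17.8% of all windows. The AP-1 motif TGANTCA was in 1 window of Adora1, beginning at position -104, and in the window of Adora3, and 6.75% of all windows held it. The NF-kB consensus was in 1 window of Ada and in the second and the third of the 4 Pde4b windows, where it began at positions -128 and -59, against 7.25% of all windows. No motif searched was found in the windows of Adora2b, Nt5e and Pde4d, as in 70.9% of all windows. These matches describe letters and were not tested as binding sites.

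Signals are given as quantile-normalized log2 values of the scanner's background-corrected signal, in which a difference of 1 is a doubling. A probe's level can be compared between arrays but not with that of another probe. A signal was called well above background where the scanner software had marked it so. The marked share of probes was 47.5 to 69.1% per array. After LPS it was 56.2 to 60.8% in wt, 49.6 to 52.5% in MK2-/- and 48.4 to 55.4% in MK2/3-/-, so the wt arrays lay above those of both deletions. The probe of Mapkapk2 read 11.49 to 15.37 in wt and 8.57 to 12.30 in the deficient BMDM, lower in each deficient genotype than in wt at the same treatment on every array. Mapkapk3 read 10.36 to 12.08 in MK2/3-/- and 13.12 to 14.35 in the other genotypes. Of 9 macrophage markers listed, the 8 measured were well above background on all 23 arrays, counting a marker where any of its probes was. Each genotype had been hybridised on a slide of its own, and medium and LPS samples lay in different columns of each slide. Genotype and slide, and treatment and slide column, therefore cannot be told apart.

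LPS against medium was compared within each genotype to find which members responded to LPS, and whether they did so without the kinases. Adora2a, Adora2b and Pde4b rose in all 3 genotypes, and in each of the 11 cultures with both samples. In wt BMDM 3 of the 10 members rose and 0 fell, while 8.26% of all genes rose and 8.89% fell. In MK2-/- BMDM 3 rose and 1, Pde4d, fell to signals mostly not above background, against 8.48% and 10.1% of all genes. In MK2/3-/- BMDM 4 rose, with Crem as the additional gene on a dim probe, and 0 fell, against 11.9% and 12.9% of all genes. Adora1, Adora3, Entpd1, Nt5e and Ada passed the test in no genotype. Calls were made at an adjusted p under 0.05 (limma, Benjamini-Hochberg over the 26014 genes). The median difference of the 10 members was 0.11, 0.11 and 0.10 in wt, MK2-/- and MK2/3-/-, beside 0.0051, -0.0108 and -0.0239 over all genes. In these bulk samples a change in RNA per cell and a change in the mix of cells cannot be told apart.

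Adora2a (NM_009630, chromosome 10, 75316877 to 75334792, GRCm38.p6), a Gs-coupled receptor, was low in medium and high after LPS. The log2 signals of the wt arrays were 4.96, 4.20, 3.59 and 4.90 without LPS and 11.11, 12.51, 11.61 and 10.67 with it. In MK2-/- BMDM it was 5.08, 4.74 and 5.86 in medium and 12.27, 12.30, 12.47 and 11.35 after LPS. In MK2/3-/- BMDM it was 6.35, 4.90, 3.96 and 4.94 in medium and 12.21, 12.13, 12.58 and 11.57 after LPS. All LPS arrays lay far above all medium arrays, and 1 wt and 1 MK2/3-/- medium array were not well above background. The log2 difference was 7.06 (SE 0.47, adjusted p = 1.57e-09) in wt, 6.87 (SE 0.50, adjusted p = 7.59e-09) in MK2-/- and 7.09 (SE 0.47, adjusted p = 1.20e-09) in MK2/3-/-, or 133-, 117- and 136-fold. With the background corrected by normexp instead, the wt difference was 4.85.

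Adora2b (NM_007413, chromosome 11, 62248984 to 62266452) is the other Gs-coupled receptor, known for needing higher adenosine levels than Adora2a. In medium its log2 signal was 8.97, 8.20, 7.42 and 7.46 in wt, 8.14, 8.31 and 7.93 in MK2-/-, and 8.04, 8.53, 7.09 and 7.87 in MK2/3-/-. After LPS it was 13.35, 12.81, 12.91 and 13.08 in wt, 12.29, 12.41, 12.18 and 12.45 in MK2-/-, and 11.63, 11.16, 10.72 and 11.54 in MK2/3-/-. The medium groups overlapped with one another, whereas the 3 LPS groups fell into an order without overlap, wt above MK2-/- above MK2/3-/-. LPS raised the signal by 5.03 (SE 0.31, 32.6-fold, adjusted p = 5.91e-10) in wt, 4.21 (SE 0.34, 18.5-fold, adjusted p = 2.46e-08) in MK2-/- and 3.38 (SE 0.31, 10.4-fold, adjusted p = 1.11e-07) in MK2/3-/-. Within cultures the rise lay between 4.38 and 5.61 for wt, between 4.10 and 4.53 for MK2-/- and between 2.63 and 3.68 for MK2/3-/-.

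Pde4b (NM_019840, chromosome 4, 102087332 to 102607275), a phosphodiesterase whose product hydrolyses cAMP, rose with the Gs-coupled receptors. Its log2 signal was 8.10, 8.12, 8.42 and 8.17 in wt medium and 12.24, 12.82, 12.80 and 12.34 after LPS. In MK2-/- BMDM it was 9.09, 8.72 and 8.76 in medium and 12.67, 12.82, 12.71 and 12.66 after LPS. In MK2/3-/- BMDM it was 8.59, 8.44, 8.59 and 8.60 in medium and 12.83, 13.10, 12.76 and 12.76 after LPS. Medium and LPS arrays were far apart in every genotype, and the spread between arrays of a group was small. The difference was 4.35 (SE 0.14, 20.4-fold, adjusted p = 7.99e-14) in wt, 3.86 (SE 0.15, 14.5-fold, adjusted p = 1.56e-12) in MK2-/- and 4.31 (SE 0.14, 19.8-fold, adjusted p = 1.01e-13) in MK2/3-/-. A second Pde4b probe differed by 4.30, 3.75 and 4.18. The remaining probe was well above background on no array, and with all probes averaged the wt difference was 2.86.

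**Figure D1:**
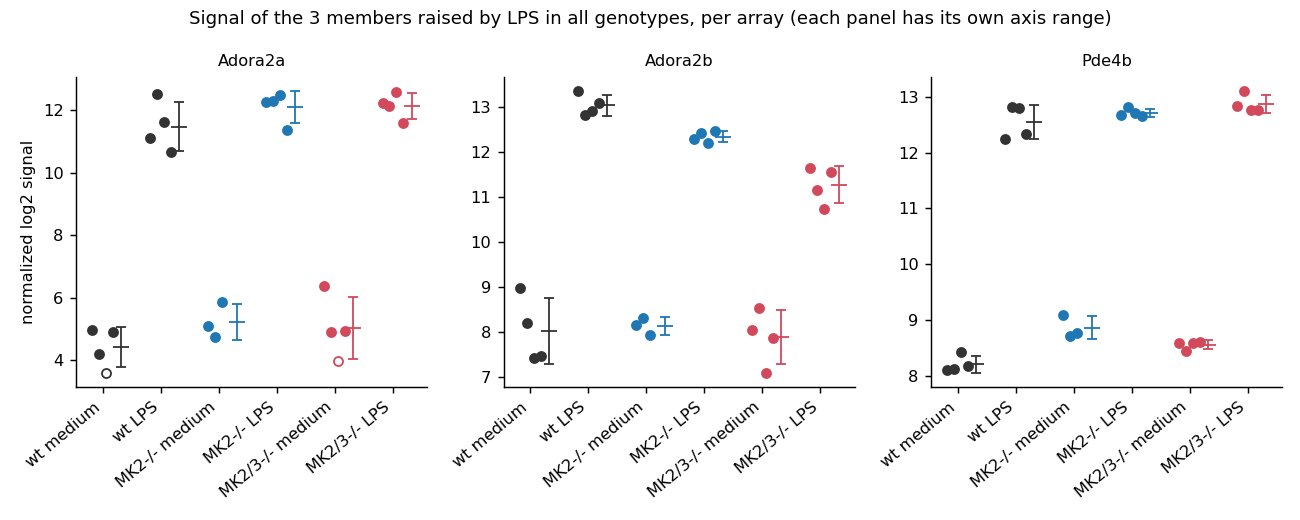
Log2 signal of Adora2a, Adora2b and Pde4b on each of the 23 arrays by group. Points are arrays, open circles are signals not well above background, and bars are the mean with its SD (n = 4, or 3 for MK2-/- medium). LPS arrays lie above medium arrays in all 3 panels, and for Adora2b the LPS means step down from 13.04 in wt to 12.33 in MK2-/- and 11.27 in MK2/3-/-.

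Markers of other cells were read on the same arrays. Each level of a marker list is the log2 of the summed signals of its genes, so that the brightest gene carries it. A marker was counted as well above background where any of its probes was. Its signal in the level came from its most LPS-induced probe in wt. The level of 3 dendritic cell markers (Zbtb46, Flt3, Cd209a) lay between 5.96 and 8.58 on medium arrays and between 9.87 and 10.96 on LPS arrays, and so moved with Adora2a, Adora2b and Pde4b. Flt3 was well above background on all 23 arrays, Zbtb46 on 22 and Cd209a on 11. The level of the NK cell markers Ncr1 and Klrb1c reached from 2.79 to 5.12 on medium arrays and from 3.51 to 8.19 on LPS arrays, with Ncr1 well above background on 4 arrays and Klrb1c on 8. The endothelial list (Kdr, Cdh5, Tek) lay between 5.96 and 8.33 on medium arrays and between 6.74 and 10.05 on LPS arrays, with Kdr well above background on 23 arrays, Cdh5 on 9 and Tek on 1. The list of 7 mast cell and basophil markers lay between 5.02 and 7.75 on medium arrays and between 5.38 and 7.97 on LPS arrays. These 4 lists were higher after LPS in 11 of 11 cultures, with median differences of 3.67 (dendritic cell), 2.07 (NK cell), 1.23 (endothelial) and 0.66 (mast cell and basophil). The level of the 8 macrophage markers stayed between 19.25 and 19.91 and was higher after LPS in 10 of 11 cultures, by a median of 0.12. The part of these cells in the rise of the 3 members was not tested.

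Of the Gi-coupled receptors, Adora1 (NM_001008533, chromosome 1, 134199215 to 134235457) was well above background on 0 of 23 arrays, with signals of 1.69 to 2.55. No level or fold is given for it. Adora3 (NM_009631, chromosome 3, 105904421 to 105908928) was well above background on all arrays. In medium it read 8.63, 7.20, 8.36 and 8.07 in wt, 7.98, 7.31 and 7.88 in MK2-/-, and 7.61, 7.31, 8.89 and 8.02 in MK2/3-/-. After LPS it read 8.19, 8.05, 7.01 and 6.999 in wt, 6.02, 6.88, 6.12 and 6.64 in MK2-/-, and 9.18, 9.14, 7.92 and 6.22 in MK2/3-/-. The groups of wt and of MK2/3-/- overlapped between medium and LPS, while the MK2-/- LPS arrays lay below all MK2-/- medium arrays. The LPS difference was -0.50 (adjusted p = 0.638) in wt, -1.31 (adjusted p = 0.132) in MK2-/- and 0.16 (adjusted p = 0.889) in MK2/3-/-. For MK2-/- the exact permutation test gave p = 0.0286 (two-sided), the smallest possible with these numbers of arrays.

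The enzymes of adenosine turnover differed more between cultures than between medium and LPS. Nt5e (NM_011851, chromosome 9, 88327609 to 88372089) ranged from 5.62 to 8.81 in wt medium, from 6.68 to 8.33 in MK2-/- medium and from 6.29 to 8.91 in MK2/3-/- medium. Its LPS differences were -0.31, -0.14 and -0.23, none past the threshold. Yet a culture high in medium was high after LPS, with 8.81 and 8.40 in the first wt culture against 5.62 and 5.33 in the second. After removing the mean of each group, the medium and LPS signals of Nt5e had r = 0.979 over the 11 cultures. This was above the r of 99.4% of the 12560 genes detected on all arrays, where the median was 0.443. Both arrays of a culture shared the row of the slide, so culture and row cannot be told apart.

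Entpd1 (NM_009848, chromosome 19, 40612366 to 40741602) ranged from 7.47 to 9.20 in wt, 8.22 to 9.32 in MK2-/- and 7.97 to 9.24 in MK2/3-/-. Its medium and LPS signals, with group means removed, had r = 0.872 over the cultures, and the LPS differences were -0.35, -0.44 and -0.20. Both Nt5e and Entpd1 were lower after LPS in 10 of 11 cultures, with median differences of -0.29 and -0.34, smaller than their spread between cultures. Ada (NM_007398, chromosome 2, 163726571 to 163750239) ranged from 8.93 to 10.74 and differed by 0.06, 0.23 and 0.05. With group means removed, its medium and LPS signals had r = 0.852. Ada read 10.50 and 10.59 in wt culture c, 10.45 and 10.38 in MK2/3-/- culture c and 10.74 in the LPS sample of MK2-/- culture c, the highest of its group each time. Matched by culture letter, which also gives the slide row, Ada was lower in MK2/3-/- than in wt in 4 of 4 letters in medium and 4 of 4 after LPS. Entpd1 was higher in MK2/3-/- than in wt in 4 of 4 letters in medium and 4 of 4 after LPS. In MK2-/- Entpd1 was higher than in wt in 2 of 3 letters in medium and 4 of 4 after LPS. The medium and LPS counts come from the same cultures and are not independent. How often other genes gave such counts was not examined. With the letter as a replicate block the MK2/3-/- differences of Ada were -0.53 (adjusted p = 0.472) and -0.54 (adjusted p = 0.0887, limma). Those of Entpd1 were 0.38 (adjusted p = 0.795) and 0.53 (adjusted p = 0.292) in MK2/3-/-. In MK2-/- they were 0.70 (adjusted p = 0.813) and 0.72 (adjusted p = 0.344). With the culture as a fixed block the wt differences of Nt5e and Entpd1 had adjusted p = 0.14 and 0.094 (limma).

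**Figure D2:**
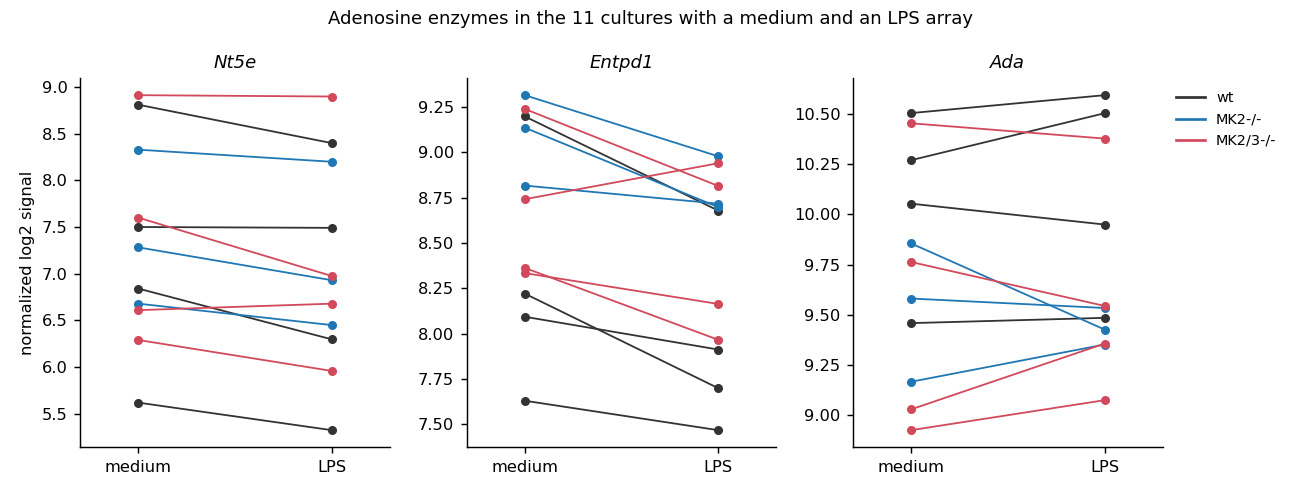
Log2 signal of Nt5e, Entpd1 and Ada in medium and after LPS, with a line for each of the 11 cultures, coloured by genotype. With group means removed, which the lines do not show, medium and LPS signals had r = 0.979 for Nt5e, 0.872 for Entpd1 and 0.852 for Ada.

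A list of 4 fibroblast markers varied in the same way, its level reaching from 9.02 to 16.68 between arrays (12.12 to 16.68 in wt medium, 10.26 to 15.06 in MK2-/- medium, 9.02 to 15.83 in MK2/3-/- medium). Col1a1 and Col1a2 were well above background on 23 arrays, Dcn on 16 and Pdgfra on 2. As a description over 23 arrays of 12 cultures, this level had r = 0.721 with Nt5e, -0.748 with Entpd1 and 0.603 with Ada. The level of the mast cell and basophil list had r = -0.760 with Entpd1. Of its genes Tpsb2 was well above background on 23 arrays, Mcpt8 on 9 and Kit on 8. Tpsb2 had 2 probes, and the one that entered the level read only 2.18 to 3.93. Cpa3 and Mcpt4 were so on 1 array each, and Fcer1a and Ms4a2 on 0. The level of the neutrophil list had r = -0.727 with Ada. These r values were the largest in size among all marker lists and these enzymes. Next came -0.592 for Nt5e with the endothelial list, 0.547 for Nt5e with the mast cell and basophil list and 0.539 for Entpd1 with the macrophage list. The arrays of a culture are not independent, and the part of these cells in the signals of the enzymes was not tested.

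Crem (chromosome 18, 3266354 to 3337773) was measured by 3 probes, of which a dim one moved less closely with the others. The gene's value in the fit came from this dim probe (NM_001110851), which was well above background on 0 of 11 medium arrays. After LPS this probe read 2.35, 4.14, 3.96 and 4.14 in wt, 3.78, 4.78, 5.17 and 3.61 in MK2-/-, and 4.58, 5.55, 5.66 and 4.54 in MK2/3-/-. It was above background on 3, 2 and 3 of 4 LPS arrays. Its fitted difference passed the test in MK2/3-/- (2.21, SE 0.44, adjusted p = 0.000886) and not in wt (0.77, adjusted p = 0.298) or MK2-/- (0.71, adjusted p = 0.368). Against the lowest signals marked as above background on the medium arrays, the mean of the MK2/3-/- LPS arrays was at least 2.47-fold higher, with 1 of these 4 arrays itself not above background. No fold is given for wt and MK2-/-.

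The other Crem probes (both NM_013498) were well above background on all arrays and had r = 0.929 with each other over the 23 arrays, against 0.525 and 0.357 with the dim probe. Their LPS differences were -0.20 and -0.24 in wt, -0.05 and -0.22 in MK2-/-, and 0.70 and 0.49 in MK2/3-/-, where the adjusted p was 0.065 and 0.12 (limma, each probe on its own). After LPS the first read 8.43, 9.22, 8.73 and 8.62 in wt and 10.18, 10.87, 9.48 and 9.01 in MK2/3-/-. The second read 9.39, 9.76, 9.54 and 9.45 in wt and 10.64, 11.08, 9.98 and 9.56 in MK2/3-/-. The MK2/3-/- arrays were the higher ones on both probes, with 1 of 4 overlapping the wt range on each. The first differed by 1.14 (adjusted p = 0.0368 with each probe on its own, exact permutation p = 0.0571) and the second by 0.78 (adjusted p = 0.0897). In medium the means of the first were 8.95, 9.12 and 9.19 in wt, MK2-/- and MK2/3-/-.

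**Figure D3:**
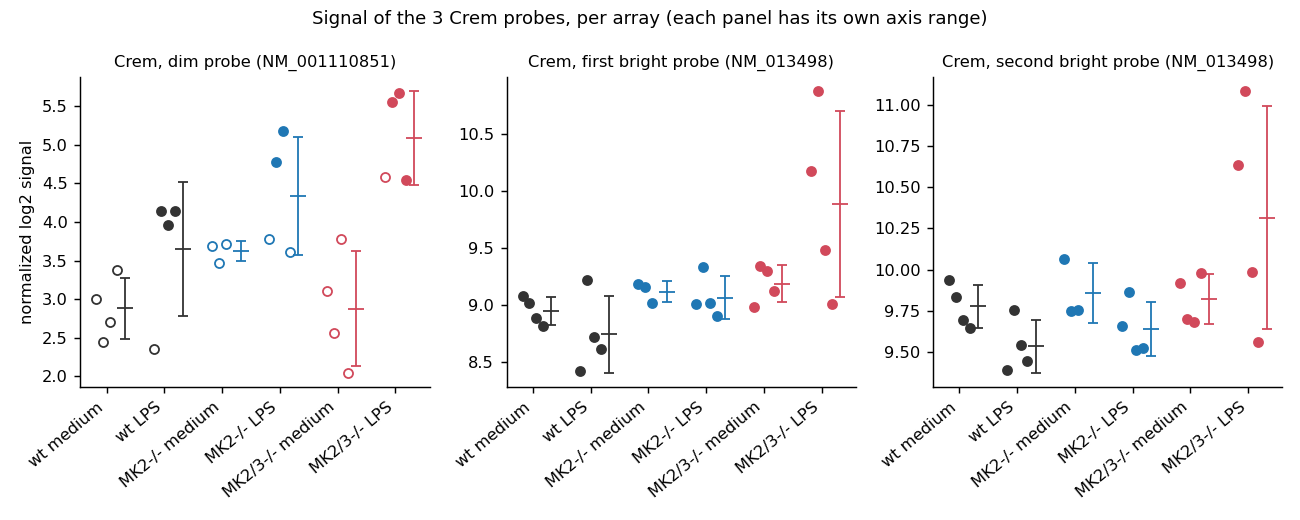
Log2 signal of the 3 Crem probes on each array by group, with open circles for signals not well above background and bars for mean and SD. The dim probe lies at 5.66 or below throughout. On the bright probes the MK2/3-/- LPS arrays reach 10.87 and 11.08, above the highest wt LPS arrays at 9.22 and 9.76, and 1 MK2/3-/- array on each lies inside the wt range.

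Pde4d (NM_011056, chromosome 13, 108654177 to 109955969), like Pde4b a cAMP phosphodiesterase, was low. In medium it read 5.91, 5.22, 4.54 and 5.07 in wt, 5.59, 5.16 and 5.35 in MK2-/-, and 5.17, 5.81, 5.29 and 5.15 in MK2/3-/-. After LPS it read 5.32, 3.93, 5.49 and 4.74 in wt, 4.12, 3.87, 4.38 and 4.74 in MK2-/-, and 4.73, 4.41, 5.47 and 5.34 in MK2/3-/-. Only in MK2-/- were all LPS arrays below all medium arrays, and 1 of those 4 LPS arrays was well above background. The fitted difference there was -1.09 (SE 0.36, adjusted p = 0.0393), with the signals of 3 of the 4 LPS arrays not told from background. It was -0.31 (adjusted p = 0.639) in wt and -0.37 (adjusted p = 0.486) in MK2/3-/-. The call was lost when any one of MK2-/- LPS replicates 1 to 3 or any MK2-/- medium replicate was left out (adjusted p = 0.0575 to 0.136), and also under normexp (-0.29, adjusted p = 0.147).

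A second Pde4d probe had LPS differences of -1.66 (adjusted p = 0.12) in wt, -2.55 (adjusted p = 0.0215) in MK2-/- and -1.32 (adjusted p = 0.19) in MK2/3-/-, each probe on its own. It was well above background on 0 of 4 MK2-/- LPS arrays, which made the change there at least 2.03-fold.

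**Figure D4:**
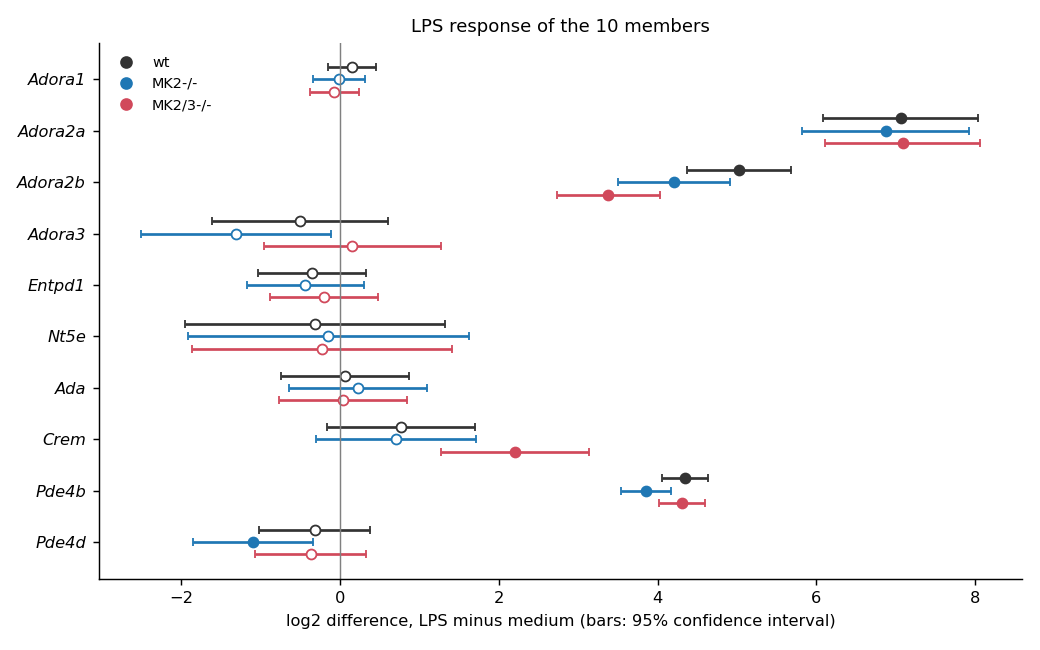
Log2 difference of LPS against medium for the members in wt, MK2-/- and MK2/3-/- BMDM. Points are estimates from the limma fit, lines are 95% confidence intervals, and filled points have an adjusted p under 0.05. Adora2a, Adora2b and Pde4b lie at 3.38 to 7.09 in all genotypes, and the points of Entpd1, Nt5e and Ada lie between -0.44 and 0.23. Adora1, drawn for completeness, was above background on no array.

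The genotypes were compared after LPS to find which members depended on MK2 or on both kinases. Adora2b passed the test with a difference of -1.77 in MK2/3-/- against wt, a lower level without both kinases. Of the 10 members 1 was called in MK2/3-/- against wt, while 1.64% of all genes were called. In MK2-/- against wt 0 members were called, with 0.0308% of all genes, and in MK2/3-/- against MK2-/- 0 members, with 0.161%. At an unadjusted p under 0.05 there were 3 members in each of the comparisons after LPS, against 7.50%, 13.6% and 7.92% of all genes in MK2-/- against wt, MK2/3-/- against wt and MK2/3-/- against MK2-/-.

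For Adora2b the difference of MK2/3-/- from wt was -1.77 (SE 0.31, 95% confidence interval -2.43 to -1.12, 3.42-fold, adjusted p = 0.00639). MK2-/- differed from wt by -0.70 (-1.36 to -0.05, adjusted p = 0.641) and MK2/3-/- from MK2-/- by -1.07 (-1.72 to -0.42, adjusted p = 0.260). In each of these 3 pairs the arrays did not overlap, with an exact permutation p = 0.0286, the smallest possible. The second Adora2b probe had means of 11.59, 11.22 and 9.77 after LPS and differed by -1.82 in MK2/3-/- against wt (adjusted p = 0.0159, each probe on its own). On it MK2-/- and wt overlapped, at -0.36 (adjusted p = 0.85). Fitting only the LPS groups compared took the adjusted p of the first probe in MK2/3-/- against wt to 0.114. The methods' t-test took it to 0.164, with an adjustment over all genes that the study's methods do not name. The study, at an unadjusted threshold, listed Adora2b among the genes that depend on MK2 or on both kinases. The share of probes above background differed between these groups as well, and its part in the difference was not tested.

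Adora2a and Pde4b were not called between genotypes after LPS. Adora2a differed by 0.63 in MK2-/- against wt (95% confidence interval -0.35 to 1.60) and 0.65 in MK2/3-/- against wt (-0.32 to 1.63). Both intervals contain 0 and reach further above it than below. Pde4b differed by 0.17 (-0.12 to 0.46) and 0.31 (0.02 to 0.60, adjusted p = 0.321). The dim Crem probe differed by 1.44 in MK2/3-/- against wt, with no overlap (0.50 to 2.37, adjusted p = 0.125), in the direction of the bright probes. Adora3 differed by -1.15 in MK2-/- against wt, without overlap, but not past the threshold (adjusted p = 0.654). In MK2/3-/- against MK2-/- its difference was 1.70 (adjusted p = 0.315), and 2.33 (adjusted p = 0.0241) without MK2/3-/- LPS replicate 4, the array at 6.22.

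**Figure D5:**
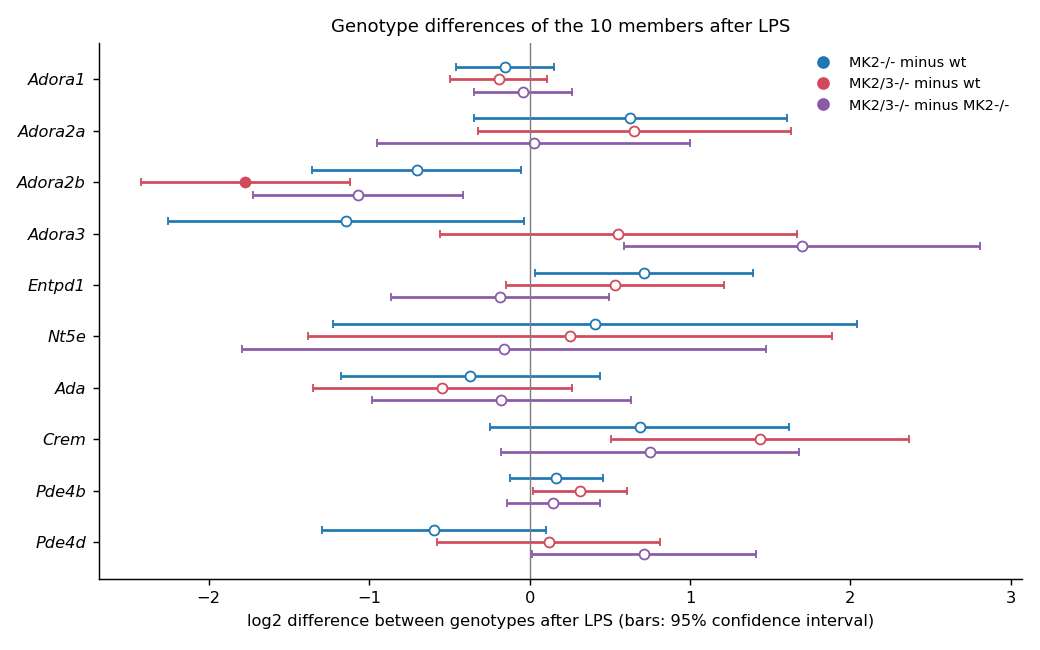
Log2 difference between genotypes after LPS for the members, with points for estimates and lines for 95% confidence intervals, filled where the adjusted p was under 0.05. The filled point is Adora2b in MK2/3-/- against wt, at -1.77. The signals of Adora1 were not above background.

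In medium 0 members were called in MK2-/- against wt (0.00769% of all genes), MK2/3-/- against wt (0.0769%) and MK2/3-/- against MK2-/- (0.0461%). An unadjusted p under 0.05 (limma) was found for 2, 1 and 0 members, against 3.42%, 4.63% and 3.57% of all genes. Pde4b was higher than wt on every medium array of both deficient genotypes, by 0.65 in MK2-/- (95% confidence interval 0.34 to 0.97, adjusted p = 0.509) and 0.36 in MK2/3-/- (adjusted p = 0.982). For Adora2b the medium differences were 0.12 and -0.13. Whether the LPS response itself differed was tested by the interaction of genotype and LPS. This called 0 members in MK2-/- against wt (0.00384% of all genes), MK2/3-/- against wt (0.0115%) and MK2/3-/- against MK2-/- (0%). At an unadjusted p under 0.05 the interactions held 1, 2 and 2 members, against 1.91%, 4.54% and 2.88% of all genes. For Adora2b the interaction was -1.64 in MK2/3-/- against wt (95% confidence interval -2.57 to -0.72, adjusted p = 0.424) and -0.82 in MK2-/- against wt (adjusted p = 1). The lower LPS level of Adora2b passed the test while the smaller LPS response, which also carries the spread of the medium arrays, did not. For the 2 bright Crem probes the interaction of MK2/3-/- against wt was 0.90 and 0.74 (adjusted p = 1 for both, each probe on its own).

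The pathway around the members was described by 8 lists with 120 genes, of which 119 were measured. In wt BMDM 16 rose, 12 fell and 91 did not pass the test, where the shares of all genes (8.26% rose, 8.89% fell) would give 9.83 and 10.58. In MK2-/- 14 rose and 12 fell, against 10.1 and 12.03 at the shares of all genes, and in MK2/3-/- 18 rose and 12 fell, against 14.21 and 15.4. The counts of each list are given beside what those shares would give. The median difference of these 119 genes was 0.10 for wt, -0.0042 for MK2-/- and -0.0063 for MK2/3-/-. Adjusted p-values are those of the limma fit over all genes.

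Of 15 genes of extracellular nucleotide and adenosine metabolism, 1, 1 and 2 rose in wt, MK2-/- and MK2/3-/- and 1, 1 and 2 fell. The shares of all genes would give 1.24, 1.27 and 1.79 rising and 1.33, 1.52 and 1.94 falling, so these counts are near the background. Entpd6, an enzyme related to Entpd1, changed by -2.03 in wt (adjusted p = 0.00211), -2.13 in MK2-/- and -1.83 in MK2/3-/-, and Cd38, which consumes NAD, by 1.09 (adjusted p = 0.00949), 1.71 and 1.48. Panx1, a channel through which ATP leaves the cell, changed by -0.64 (adjusted p = 0.081), -0.70 and -0.78 (adjusted p = 0.0226 in MK2/3-/-).

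Of 18 genes of intracellular adenosine metabolism and nucleoside transport, 4, 3 and 5 rose in wt, MK2-/- and MK2/3-/- and 1, 1 and 2 fell, against 1.49, 1.53 and 2.15 rising and 1.6, 1.82 and 2.33 falling at the shares of all genes. Among them Ampd3, which deaminates AMP to IMP, rose by 2.63, 3.54 and 3.53, and Nt5c3, which takes the phosphate off pyrimidine nucleotides, by 2.61, 2.78 and 3.04. Pnp, which cleaves inosine, the product of Ada, differed by 3.05, 3.28 and 3.52. It was not well above background on any medium array of wt and MK2-/-, so there its rise was at least 4.44- and 4.37-fold. In MK2/3-/- medium Pnp was well above background on 1 of 4 arrays, so the 3.52 also rests mostly on signals not told from background.

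Of 15 P2 receptors for ATP and other nucleotides, 1, 2 and 2 rose and 2, 1 and 1 fell, near the 1.24, 1.27 and 1.79 rising and 1.33, 1.52 and 1.94 falling at the shares of all genes. P2ry2 rose by 2.62, 2.89 and 2.29. P2ry13 differed by 1.49 (adjusted p = 0.196) in wt, 2.69 (adjusted p = 0.0197) in MK2-/- and 3.87 (adjusted p = 0.000455) in MK2/3-/-, with no interaction called. P2rx7, the ATP-gated channel of the inflammasome pathway, changed by -0.75 (adjusted p = 0.0477) in wt, -0.73 in MK2-/- and -0.38 in MK2/3-/-.

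Of 15 other Gs-coupled receptors measured, 3, 1 and 2 rose and 1, 2 and 1 fell, where the shares of all genes would again give 1.24 to 1.79 rising and 1.33 to 1.94 falling. Calcrl, a receptor for peptides of the calcitonin family, rose by 2.90, 2.87 and 2.72. Ptger2, a receptor for prostaglandin E2, differed by 1.60 (adjusted p = 0.00146) in wt, 0.85 (adjusted p = 0.109) in MK2-/- and 0.65 (adjusted p = 0.167) in MK2/3-/-, with no interaction called. Gpr65, a proton-sensing receptor, changed by -1.63 (adjusted p = 0.064) in wt, -1.83 (adjusted p = 0.04999) in MK2-/- and -1.996 (adjusted p = 0.0156) in MK2/3-/-.

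Downstream, 1 of 15 adenylate cyclases and G alpha subunits rose in each genotype, and 1 fell in MK2-/-, no more than the 1.24 to 1.79 rising and 1.33 to 1.94 falling at the shares of all genes. The riser was Gnai3, an inhibitory alpha subunit, by 0.30 (adjusted p = 0.0308), 0.56 and 0.88, and Adcy9, a cyclase, changed by -0.68, -1.42 (adjusted p = 0.0102 in MK2-/-) and -0.89. Of 11 genes of protein kinase A, Epac and their inhibitors 1 rose in each genotype and 0 fell, against 0.91 to 1.31 rising and 0.98 to 1.42 falling at those shares. It was the regulatory subunit Prkar2b in wt (1.19, adjusted p = 0.0127) and MK2-/- (1.20, adjusted p = 0.0188), and the regulatory subunit Prkar1a in MK2/3-/- (0.50, adjusted p = 0.00339).

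Of 14 other phosphodiesterases 0 rose and 2, 1 and 2 fell, near the 1.24, 1.42 and 1.81 falling at the shares of all genes, which would give 1.16, 1.19 and 1.67 rising. Pde8b, which is specific for cAMP, changed by -2.56 (adjusted p = 0.00819), -2.58 and -2.42, and in MK2-/- it was above background on no LPS array, which made the fall at least 4.17-fold. In wt and in MK2/3-/- it was above background on 2 of 4 LPS arrays each, so these differences rest in part on signals not told from background. Pde4c, of the family of Pde4b, changed by -0.61 (adjusted p = 0.0482) in wt, -0.36 in MK2-/- and -0.67 (adjusted p = 0.0213) in MK2/3-/-.

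Of 16 genes of the CREB family, its coactivators and classical cAMP-induced genes, 5 rose in each genotype and 5, 5 and 4 fell, against 1.32, 1.36 and 1.91 rising and 1.42, 1.62 and 2.07 falling at the shares of all genes. Per1, a clock gene, changed by -3.71, -3.93 and -3.56, and Fos, an immediate early gene, by -3.14, -3.63 and -3.04. Nr4a3, a nuclear receptor gene, was above background on no medium array, and on 2, 3 and 4 of the 4 LPS arrays in wt, MK2-/- and MK2/3-/-. In MK2/3-/- it rose at least 8.25-fold (adjusted p = 8.34e-06). For wt and MK2-/- the bounds were 2.19-fold (adjusted p = 0.0041) and 4.47-fold (adjusted p = 0.000231). There the mean includes LPS arrays that were themselves not above background. No interaction was called for it. The list thus moved in both directions under LPS.

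Between genotypes 2 of the 119 genes were called, both in MK2/3-/- against wt after LPS, where the share of all genes would give 1.95. Gnai3 was higher by 0.49 (SE 0.09, adjusted p = 0.0116) and Crtc2, a coactivator of CREB, by 0.65 (SE 0.11, adjusted p = 0.00568).

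The genes most alike to Adora2b, Crem and Pde4b were found by Pearson's r of the log2 signal over the 23 arrays, among 15686 genes, as a description. For Adora2b these were Cxcl2 (r = 0.986), Cxcl1 (0.983) and Osgin2 (0.971). Cxcl2 and Cxcl1 encode chemokines that attract neutrophils. Cxcl2 averaged 15.37 in wt, 14.83 in MK2-/- and 13.25 in MK2/3-/- after LPS, and Cxcl1 averaged 15.87, 15.54 and 14.08, the same order of genotypes as for Adora2b. The LPS arrays entered the choice of these genes, so the shared order is not a separate observation. For Pde4b the genes were Csrnp1 (0.995), Tnip1 (0.994) and Stx11 (0.994). For the dim Crem probe they were Zfp598 (0.902), Bco2 (0.866) and Slc35a3 (0.857), further from 1 than for Adora2b and Pde4b. Since all arrays enter, r mostly follows the step between medium and LPS.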

How the data were processed

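The authors scanned 23 single-dye Agilent arrays, 1 per sample, and deposited the scanner output (Feature Extraction 11.0.1.1 per the file headers), whose processed signals are intensities after background correction by the software. For 2 arrays no gradient fit had been made. No deposited column was left unmapped to a sample.

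The authors also deposited log2 values, made by quantile normalization and centring of each probe on its median, which served as an alternative. Their array medians were -0.0195 to 0.0239.

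Control spots and outlier spots were left out. Signals were put on the log2 scale with no floor, averaged over the spots of each probe and quantile-normalized. Of 1280663 probe values 258 were missing. Probes were named by accession, 27509 of them through the RefSeq table. As in the study's methods a gene was represented by its most LPS-induced probe in wt, a choice that uses the wt LPS contrast and bears on Adora2b, Crem, Pde4b and Pde4d. The 6 groups were fitted together in limma 3.58.1 (R 4.3.3), with Benjamini-Hochberg adjustment over 26014 genes at 0.05. Exact tests were two-sided permutation tests. The number of arrays limits the precision, and p-values measure the spread between these samples. The procedure was tested on simulated arrays with independent noise. These did not carry the correlation within cultures, so its effect was not tested there. The members and lists were chosen with earlier results of these data known.

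Named were the 10 members, the targeted kinases, per pathway list the 3 genes with the largest wt LPS difference among those called in any genotype and detected throughout a group, all listed genes called between genotypes, and the 3 genes most alike to Adora2b, Crem and Pde4b. A fold against a group not above background is a bound, set against the higher of the probe's own signal and the lowest signal marked as above background on each array.

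Medium and LPS samples of a culture were paired by the culture letter of the deposited arrays and their equal age. After removing group means, the 11 pairs correlated at 0.358 to 0.775 over the 12560 genes detected on all arrays and at 0.0657 to 0.566 over all genes (10 of 11 above 0.1). The culture was tried as a random replicate block (within-culture correlation 0.2409).

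Alternatives were the authors' log2 values, scaling by the 75th percentile, outlier spots kept, signals under 5 set to 5, normexp on the median signal with an offset of 50 (no mean signal was used here), a filter on dim probes, the mean of all probes, the replicate block, fits of only the groups compared, the methods' t-test, and leaving out each array. Leaving out the 2 arrays without a gradient fit, each probe on its own the culture as a fixed block and the culture letter as a block across genotypes were added after the data were seen.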

Additional observations from a re-analysis of the deposited data

Results flagged for a closer look

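Within groups of 4 arrays, 7 of 80 sets of a member probe and a group had a lowest or highest array set apart from the rest by more than Dixon's 95% critical value allows. Chance gives about 1 in 20. Pde4b was 8.44 in MK2/3-/- medium replicate 2, an array without a gradient fit, against 8.59 to 8.60 on the others, a gap that is small beside the LPS difference. The dim Crem probe was 2.35 in wt LPS replicate 1, against 3.96 to 4.14. Ada was 10.74 in MK2-/- LPS replicate 3, against 9.35 to 9.53, and this culture had no medium sample. The cultures with the same letter in the other genotypes were also high for Ada (10.50 and 10.59 in wt, 10.45 and 10.38 in MK2/3-/-). The remaining sets held signals not above background. These were the dark Pde4b probe at 2.14 in wt medium replicate 3, and Adora1 at 2.55 in wt LPS replicate 4, 1.88 in MK2-/- LPS replicate 1 and 1.93 in MK2/3-/- medium replicate 2.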

How the results depend on the processing

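The number of members called changed in 18 of 435 recomputed counts. For LPS in MK2-/- it changed in 12 of 37, from 4 to 3 or 5. It was 3 with normexp, without the 2 arrays lacking a gradient fit and with the culture as a fixed replicate block, 5 with only the groups compared and with the methods' t-test, and 3 to 5 when arrays were left out. In MK2/3-/- against wt after LPS it was 1 as reported, 2 with only probes above background in a group, 2 with the mean of all probes and 2 with every probe on its own, where Crem was added (1.14, adjusted p = 0.0224, with the first of these and 1.12, adjusted p = 0.0260, with the mean). It was 0 with only the groups compared and 0 with the methods' t-test, whose p-values were adjusted over all genes for these counts. In MK2/3-/- against MK2-/- after LPS the count ranged from 0 to 1 when arrays were left out, with Adora3 called without MK2/3-/- LPS replicate 4. Adora2b in MK2/3-/- against wt after LPS lay between -1.89 and -1.59 in 35 alternatives and passed in 33. With the replicate block, the pairing by culture, its adjusted p was 0.00575 and the member counts did not change, at 3, 4 and 4 for LPS and 1 for MK2/3-/- against wt after LPS. The same culture letters recur in the genotypes, and arrays of the same letter and treatment in different genotypes had a median correlation of 0.373 after removing group means (17 of 22 pairs above 0.1), against -0.117 for different letters. With the letter as a replicate block no member call changed. The adjusted p of Adora2b in MK2/3-/- against wt was then 0.00152, its interaction was -1.64 (adjusted p = 0.145), and the calls over all genes in that comparison after LPS rose from 427 to 950. Without the 2 arrays lacking a gradient fit the adjusted p was 0.00778. Adora2a, Adora2b and Pde4b after LPS passed in 36 of 36 alternatives in each genotype. The fall of Pde4d in MK2-/- failed in 9 of 36, also without the 2 arrays (0.0807) and with the culture as a fixed block (0.0776), and the difference of Adora3 there passed in 3 (0.0236 with only the groups compared, 0.0497 with the methods' t-test, 0.0419 without MK2/3-/- LPS replicate 4). The LPS difference of Crem in MK2/3-/- as a gene passed in 36 of 36, at 0.47 to 2.51, but with each probe on its own neither bright probe passed (adjusted p = 0.065 and 0.12). No sign of a called value was turned. The cause of these changes was not tested.

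Counts over all genes moved more. They ranged over the alternatives from 3014 to 5732 in wt (4460 as reported), 3777 to 6169 in MK2-/- (4837) and 4679 to 8038 in MK2/3-/- (6474) for LPS, from 1 to 25 (8), 5 to 950 (427) and 3 to 113 (42) after LPS for MK2-/- against wt, MK2/3-/- against wt and MK2/3-/- against MK2-/-, from 0 to 7 (2), 2 to 31 (20) and 0 to 16 (12) in medium and from 0 to 2 (1), 0 to 19 (3) and 0 to 1 (0) for the interactions. The methods' t-test at its unadjusted threshold called 3, 5 and 4 of the 10 members for LPS and 2, 2 and 1 after LPS. Of all 26014 genes it called 7031, 7572 and 8064 for LPS and 1403, 2419 and 1708 after LPS. Scaling by the 75th percentile moved the median of all genes to 0.15 for LPS in wt, 0.20 in MK2-/- and 0.15 for MK2/3-/- against wt after LPS, and in MK2/3-/- against MK2-/- after LPS the higher share of calls went from 35.7% to 52%.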
